A study of Mus musculus with 6 samples.

Results

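Splicing factor genes were followed in polysome RNA of mouse macrophage-like cells. They were defined by name as the rows whose ID starts with Srsf, Hnrnp, Sf3a, Sf3b or Snrp, without pseudogene names, which gave 52 of the 19233 genes in the table. By family, 20 were Hnrnp genes, 13 Snrp genes, 10 Srsf genes and 9 Sf3 genes. The names used no measured value. The cells were RAW264.7, an established mouse line of macrophage type, labelled M2 (alternatively activated) in all 6 libraries. For 3 libraries the polarized cells were kept with 500 nM BMH-21, which blocks transcription of ribosomal RNA genes, for 24 h. For the other 3 they were kept with the solvent DMSO. BMH-21 was added 24 h after polarization. The treatment label speaks of bone-marrow-derived macrophages while every title names RAW264.7, so the agent that polarized this line is not certain, and all libraries come from the 1 line. RNA came from polysome fractions, in which mRNAs carry several ribosomes. A value therefore combines how much of an mRNA was present with how much of it was on polysomes, and unfractionated RNA was not analysed here.

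Values are FPKM, fragments scaled by transcript length and by the size of the library, so they are shares of a library per unit length. Steps between low values pointed to about 18700000 to 22500000 fragments in the BMH-21 libraries and 21600000 to 24000000 in the DMSO libraries. The 8 macrophage markers were all present, with summed levels of 18582 to 19797 FPKM in BMH-21 libraries and 10809.9 to 11209 FPKM in DMSO libraries. Most of that sum was Lyz2, at 17503 FPKM with BMH-21 and 9471 FPKM with DMSO. Of the 8, 5 were called higher and 3 lower, namely Adgre1 at 55.7%, Fcgr1 at 46.7% and Csf1r at 87.5% of the DMSO mean. Of 10 markers of fibroblasts, T cells and B cells, 3 were in the table, and none reached 1 FPKM in at least 3 libraries. Epithelial markers (Epcam, Krt8, Krt18 and Cdh1) split the DMSO libraries. They summed to 13.9, 10.9 and 13.0 FPKM in the BMH-21 libraries and to 0.0, 0.088 and 9.66 FPKM in the DMSO libraries. DMSO replicate 3 thus resembled the BMH-21 libraries in these markers and DMSO replicates 1 and 2 did not. Fold changes with DMSO replicates 1 and 2 left out rest on 1 DMSO library and are given as values with no test. In these bulk samples, a change in the share of such cells and a change in RNA per cell cannot be told apart.

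Most introns are removed by the spliceosome, which is built from small nuclear ribonucleoproteins (snRNPs), particles of a short nuclear RNA and proteins. A ring of Sm proteins, encoded by Snrp genes, wraps the RNA of the U1, U2, U4 and U5 particles, and the SF3A and SF3B complexes belong to the U2 particle and hold it at the branch point of the intron. SR proteins, encoded by Srsf genes, mostly promote the use of exons, and many hnRNPs, which coat nuclear RNA, act against it. SR and hnRNP genes are also known to make unproductive isoforms that are degraded, and values per gene do not separate these from coding mRNA.

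After BMH-21, 44 of the 50 tested members fell, 5 rose and 1 did not pass the test. All 20 Hnrnp genes and all 9 Sf3 genes fell (18 to 20 and 6 to 9 under other scalings of the libraries), while the Srsf genes and the Snrp genes were split. The deepest falls on the log2(FPKM + 1) scale were those of Hnrnpa1, Sf3a3, Sf3b2 and Hnrnpa3, to 36.4%, 37.1%, 38.0% and 43.8% of the DMSO mean. Sf3a1, a low mRNA whose log2 value the pseudocount compresses, fell to 40.9%. The highest rises were those of Snrpd2, Snrpg and Snrpe, all parts of the Sm ring, which reached 127%, 123% and 119% of the DMSO mean. On the log2 scale they were 0.34, 0.29 and 0.24. These 3 genes have at most 400 coding bases, and the median over all 497 tested protein-coding genes of that length was 0.24. All 50 tested members were at 1 FPKM or more in every library, so none entered only through the group where it was higher. The other 2 were Snrpn, at 0.0223 to 0.0493 FPKM in BMH-21 libraries and 0.0 to 0.0409 FPKM in DMSO libraries, and Snrpert, a processed pseudogene in the annotation, at 0.0 to 0.476 FPKM in BMH-21 libraries and 0.0 to 0.332 FPKM in DMSO libraries.

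A member was called where its limma adjusted p, over all 9748 tested genes, was under 0.05. Of the members, 49 of 50 were called, 5 as higher and 44 (88.0%) as lower, against 78.3% of all tested genes called, 19.9% as higher and 58.4% as lower. At least a 2-fold fall on the log2(FPKM + 1) scale was called for 7 of the 50 members and for 5.24% of all genes. Hnrnpk and Hnrnpa2b1, at 49.3% and 49.9% of their DMSO means, just missed that cut, at −0.97 each. The groups did not overlap in 48 of the 50 members and in 79.8% of all genes. On the log2(FPKM + 1) scale the members' median change was −0.48, and the median over all tested genes −0.23. Relative to all genes, the family medians were −0.41 for Hnrnp, −0.31 for Sf3, −0.21 for Snrp and 0.03 for Srsf. With a pseudocount of 0.1 they were −0.43, −0.49, −0.18 and 0.07 in the same order, so Sf3 rather than Hnrnp was lowest. In a median-ratio scaling, which moves the all-gene median by 0.23 to 0.00, 33 members were lower, 7 higher and 10 not called, with 3546 lower and 3643 higher among all genes. In that scaling Hnrnpa1 and Sf3a3 kept a 2-fold fall, at −1.17 and −1.03, and Sf3b2, at −0.99, did not. Over this and 3 further scalings 33 to 44 members were lower, and no Hnrnp or Sf3 gene was called higher by limma in any of them (0 also at an unadjusted p under 0.05).

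**Figure D1:**
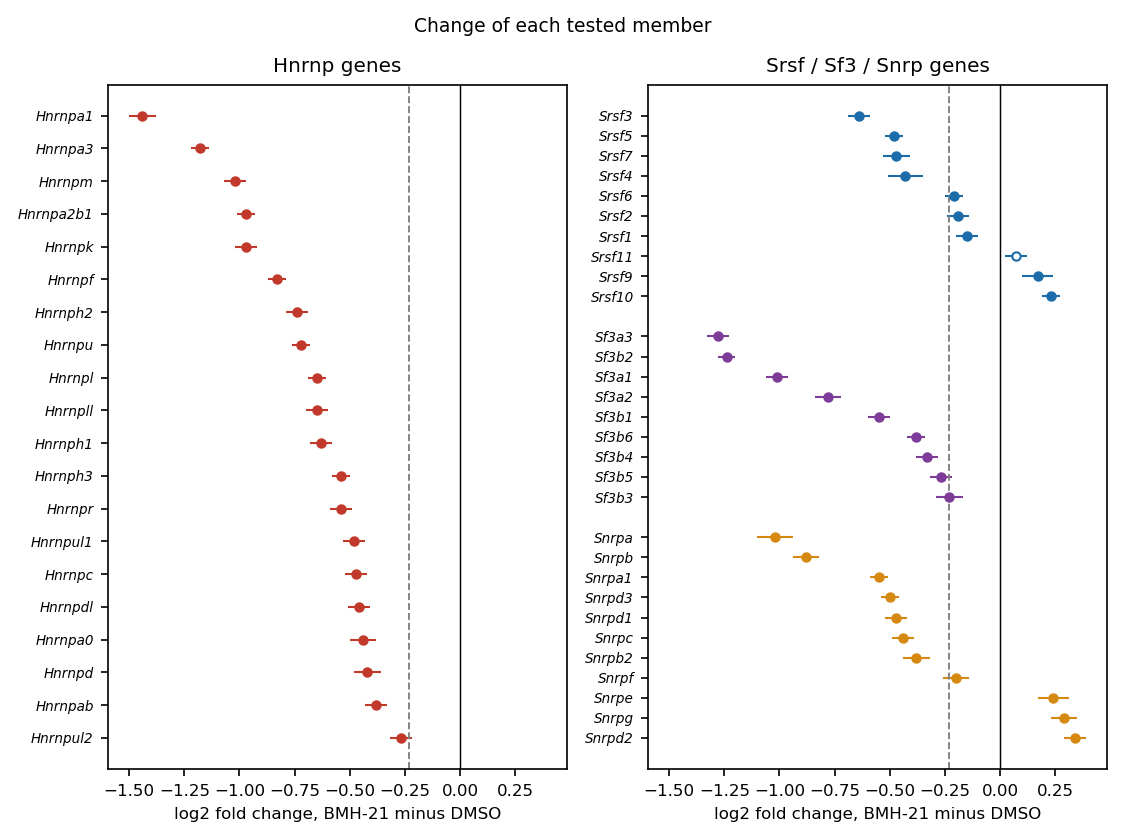
Points give the log2 fold change (BMH-21 minus DMSO, log2(FPKM + 1) scale) of the 50 tested members with limma standard errors (3 libraries per group). Filled points were called, the open point (Srsf11) was not, the solid line marks 0 and the dashed line the all-gene median of −0.23. Hnrnp and Sf3 genes all lie below 0 (Sf3b3 turns to 0.09 with quantile normalization and Sf3b5 to 0.00 with median-ratio scaling), and Snrpd2, Snrpg, Snrpe, Srsf10 and Srsf9 are the called points above it, of which Snrpe and Srsf9 are not called once column totals are made equal.

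Summed over a family, the members took a smaller share of each BMH-21 library. The 20 Hnrnp genes made up 0.235%, 0.25% and 0.235% of all FPKM in the BMH-21 libraries and 0.403%, 0.408% and 0.416% in the DMSO libraries. The Snrp genes made up 0.188% to 0.206% in BMH-21 libraries and 0.276% to 0.293% in DMSO libraries. The Sf3 share was 0.0405% to 0.0409% in BMH-21 libraries and 0.0611% to 0.0635% in DMSO libraries. The Srsf share was 0.121% to 0.129% in BMH-21 libraries and 0.141% to 0.156% in DMSO libraries. In none of the 4 families did the shares of the groups overlap. With column totals made equal, the median log2 fold change over all tested genes was itself −0.33. Relative to that median, the family medians were −0.42 for Hnrnp, −0.3 for Sf3, −0.23 for Snrp and 0.01 for Srsf. The typical Srsf gene thus lost about as much share as the typical tested gene. A sum is led by its most abundant members, Hnrnpab, Snrpb, Sf3b4 and Srsf9, so it does not describe the typical gene.

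**Figure D2:**
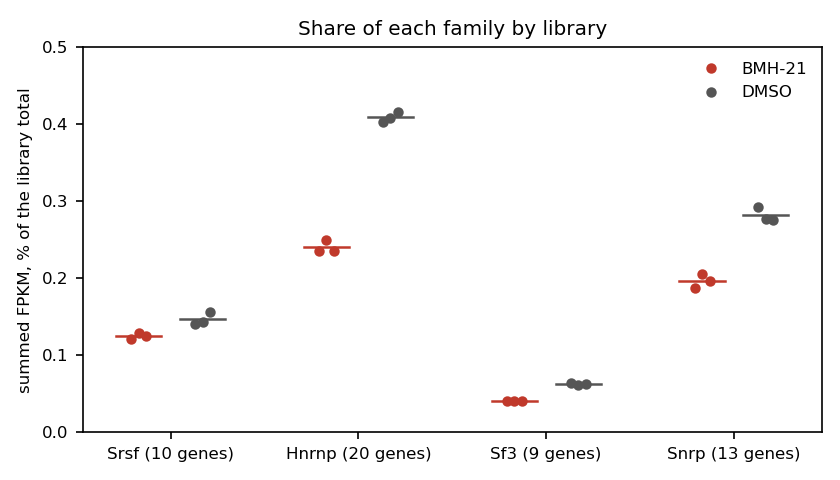
Points are the 3 libraries of each group and short lines their means. The vertical axis gives the summed FPKM of a family as a percentage of the library's total FPKM. Hnrnp genes took 0.235% to 0.25% in BMH-21 libraries and 0.403% to 0.416% in DMSO libraries, and the Srsf genes took 0.121% to 0.129% in BMH-21 libraries and 0.141% to 0.156% in DMSO libraries.

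The hnRNPs of the A and B type, abundant proteins that bind nascent RNA and shift splice site choice, held both the deepest and some of the shallowest falls of their family. Hnrnpa1 (chromosome 15, 103240432 to 103246692 on GRCm38) encodes hnRNP A1, which promotes exon skipping. It had 51.7, 53.9 and 44.5 FPKM in the BMH-21 libraries and 141, 136 and 135 FPKM in the DMSO libraries. Every BMH-21 value lay far below every DMSO value. The log2 fold change was −1.44 ± 0.06 (SE) with a limma adjusted p of 2.63e-08, and 1.3% of tested genes fell at least as far. Its relative Hnrnpa3 had 72.3, 75.5 and 71.2 FPKM with BMH-21 and 169, 168 and 164 FPKM with DMSO, or −1.18 on the log2 scale (limma adjusted p = 4.19e-09). Hnrnpa2b1, which also takes part in RNA transport, averaged 24.4 ± 0.12 FPKM with BMH-21 and 48.9 ± 0.34 FPKM with DMSO (SD, n = 3 each). Hnrnpa1, Hnrnpa3 and Hnrnpa2b1 therefore fell to 36.4%, 43.8% and 49.9% of their DMSO means.

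Hnrnpa0 and Hnrnpab, the most abundant members of the family, moved less. Hnrnpab (chromosome 11, 51600100 to 51606847) had 379.7, 429.7 and 388 FPKM in BMH-21 libraries and 516, 518 and 524 FPKM in DMSO libraries. The groups did not overlap, but the log2 fold change was only −0.38 ± 0.05 (SE, limma adjusted p = 5.47e-05), and the call was lost under median-ratio scaling (−0.10, adjusted p = 0.126). Hnrnpab overlaps the protein-coding gene Phykpl on the opposite strand by 4390 bases, and reads of the 2 strands cannot be told apart without stranded counting. Hnrnpa0 averaged 127 ± 6.7 FPKM with BMH-21 and 172 ± 14 FPKM with DMSO (SD, n = 3 each). Hnrnpa3, at 73.0 FPKM with BMH-21 and 167 FPKM with DMSO, was thus well below Hnrnpa0 in BMH-21 libraries and close to it in DMSO libraries.

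Among the other hnRNPs, Hnrnpm, which regulates alternative exons, fell most, with 5.7, 6.08 and 5.95 FPKM in BMH-21 libraries and 13.0, 12.6 and 13.3 FPKM in DMSO libraries (log2 fold change −1.02, limma adjusted p = 2.77e-08). Hnrnpk, a poly(C)-binding protein with roles in transcription and splicing, averaged 14.4 ± 0.58 FPKM with BMH-21 and 29.2 ± 1.8 FPKM with DMSO. The F/H group binds G-rich RNA, and its 4 genes fell within a narrow band, from −0.83 for Hnrnpf to −0.54 for Hnrnph3, with Hnrnph2 at −0.74 and Hnrnph1 at −0.63. Hnrnpl and its paralog Hnrnpll, which bind CA-rich RNA and regulate Cd45 exons in T cells, both had a log2 fold change of −0.65. Hnrnph1 and Hnrnph2, like other close paralogs here, share sequence, and how the counting divided such reads is not stated, so their separate values are uncertain.

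Smaller falls were measured for Hnrnpc, whose product packages nascent transcripts, at 27.0 FPKM with BMH-21 and 37.8 FPKM with DMSO, and for Hnrnpd and Hnrnpdl, the AUF1 gene and its paralog, at −0.42 and −0.46 on the log2 scale. Of the 3 genes of the U type, Hnrnpu, a scaffold protein of the nucleus, was at −0.72, Hnrnpul1 at −0.48 and Hnrnpul2 at −0.27. Hnrnpul2 had the smallest change of the family, and its call was lost under median-ratio, upper-quartile and quantile scaling, at −0.05 to 0.00. Hnrnpr was the least abundant of the family, at 2.07 FPKM with BMH-21 and 3.46 FPKM with DMSO (log2 fold change −0.54).

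In the SF3A complex, which joins the U2 particle late in its maturation, all 3 subunits fell by more than the all-gene median. Sf3a3 (chromosome 4, 124714776 to 124732460) had 5.35, 5.3 and 5.76 FPKM in BMH-21 libraries and 14.8, 15.5 and 13.9 FPKM in DMSO libraries. The groups lay far apart, at −1.28 ± 0.05 on the log2 scale (SE, limma adjusted p = 1.62e-08). Sf3a1 had 2.37, 2.29 and 2.33 FPKM with BMH-21 and 5.87, 5.73 and 5.52 FPKM with DMSO, a log2 fold change of −1.01. Sf3a2 averaged 8.11 ± 0.61 FPKM with BMH-21 and 14.6 ± 0.77 FPKM with DMSO, a log2 fold change of −0.78.

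The SF3B subunits spread more widely. Sf3b2, which contacts the RNA near the branch point, had 5.29, 4.99 and 4.9 FPKM in BMH-21 libraries and 13.5, 13.3 and 13.2 FPKM in DMSO libraries (log2 fold change −1.24, limma adjusted p = 7.4e-09). Sf3b1, the largest subunit, which cradles the branch site helix, averaged 1.64 ± 0.039 FPKM with BMH-21 and 2.86 ± 0.13 FPKM with DMSO, or 57.5% of the DMSO mean. The pseudocount of 1 compresses its log2 fold change to −0.55. Sf3b4 had the highest mean of the Sf3 mRNAs, with 48.4, 43.1 and 47.7 FPKM with BMH-21 and 60.4, 56.6 and 59.2 FPKM with DMSO, a log2 fold change of −0.33.

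The small subunit genes Sf3b6, whose product touches the branch point adenosine, and Sf3b5 were at −0.38 and −0.27, and Sf3b3, a large scaffold subunit, at −0.23, the same as the median of all genes. Under median-ratio and upper-quartile scaling Sf3b3, Sf3b4 and Sf3b5 were no longer called, and under quantile normalization Sf3b3 was at 0.09. The Sf3 mRNAs lay further apart in BMH-21 libraries. The standard deviation of log2 FPKM over the 9 genes was 1.91, 1.89 and 1.89 in the BMH-21 libraries and 1.69, 1.65 and 1.67 in the DMSO libraries, with Sf3b1 the lowest mRNA in all 6.

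The Sm ring holds 7 proteins in equal numbers, and its mRNAs moved in opposite directions. Snrpd2 (chromosome 7, 19149722 to 19153542), Snrpg and Snrpe rose, and Snrpb, Snrpd3, Snrpd1 and Snrpf fell, although Snrpf turned to 0.08 under median-ratio scaling. Promoter windows of 6 Snrp genes, 4 of the ring and 1 each of the U1 and U2 particles, are shown because the family was split in direction. They are RefSeq sequences on GRCm38.p6, 5′ to 3′ on the gene's strand, from 100 bases before to 20 after the annotated start, with matches to searched motifs in capitals. The genes are the 3 Snrp genes that rose and, of the Snrp genes that fell, the 3 deepest for which a window was held.

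Snrpd2, chr7:19149738-19149857, plus strand: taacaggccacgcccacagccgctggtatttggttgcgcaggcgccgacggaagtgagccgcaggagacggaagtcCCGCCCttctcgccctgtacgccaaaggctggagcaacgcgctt
Snrpg, chr6:86371440-86371559, plus strand: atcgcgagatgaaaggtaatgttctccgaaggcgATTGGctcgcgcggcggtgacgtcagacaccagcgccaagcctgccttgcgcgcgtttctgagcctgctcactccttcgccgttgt
Snrpe, chr1:133610261-133610380, minus strand: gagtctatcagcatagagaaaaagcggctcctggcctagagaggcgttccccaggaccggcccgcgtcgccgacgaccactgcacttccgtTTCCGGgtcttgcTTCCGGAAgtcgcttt
Snrpa, chr7:27196252-27196371, minus strand: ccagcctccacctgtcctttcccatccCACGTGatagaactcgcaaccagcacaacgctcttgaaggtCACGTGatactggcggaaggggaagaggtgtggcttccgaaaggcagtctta
Snrpa1, chr7:66060236-66060355, plus strand: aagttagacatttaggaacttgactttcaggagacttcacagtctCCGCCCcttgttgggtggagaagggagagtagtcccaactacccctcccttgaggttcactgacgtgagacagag
Snrpd3, chr10:75517942-75518061, plus strand: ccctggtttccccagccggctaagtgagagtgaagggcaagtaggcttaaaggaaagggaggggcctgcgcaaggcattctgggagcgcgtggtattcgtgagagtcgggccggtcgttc

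The motifs searched on both strands were the E-box CACGTG, the CCAAT box CCAAT, the GC box GGGCGG, the ETS core CCGGAA and the TATA box TATAAA. In the printed windows, Snrpd2 and Snrpa1 each had a GC box match, Snrpg a CCAAT box match, Snrpe 3 ETS core matches, of which 2 overlap each other on opposite strands, and Snrpa 2 E-box matches. Snrpd3 had none of these letters in this window. Its whole window of 300 bases, however, held a CCAAT box, a GC box and an ETS core. The whole window of Snrpg also held an ETS core, and that of Snrpa a GC box and a TATA box. Over whole windows of 300 bases, 45 members had 62 windows, of which 48.4% held the ETS core, against 14.9% of all 32851 windows. The GC box was in 67.7% of member windows and 35.7% of all, the CCAAT box in 45.2% and 37.4%, the E-box in 11.3% and 7.15%, and the TATA box in 11.3% and 13.6%. Windows of the same gene can overlap. The full set covers 27025 genes, whether or not they were expressed in these cells. Shares among the tested genes alone were not computed, so an excess in member windows may be shared by expressed genes in general. A run of at least 5 pyrimidines from the start was present in 2 of the 62 member windows, 1 each of Hnrnpa0 and Srsf5, and in 4.44% of all windows. A match is a description of letters, not a bound site.

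Snrpd2 encodes SmD2. It had 109, 121 and 123 FPKM in BMH-21 libraries and 96.4, 92.8 and 89.3 FPKM in DMSO libraries, which is 0.34 ± 0.05 higher on the log2 scale (SE, limma adjusted p = 0.000209). Snrpg, which encodes SmG, had 40.6, 41.4 and 42.1 FPKM with BMH-21 and 36.8, 32.7 and 31.6 FPKM with DMSO (log2 fold change 0.29, limma adjusted p = 0.000727). Both kept their direction and their call under every scaling and filter that was run, and with each single library left out.

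Snrpe, which encodes SmE, had 54.7, 68.6 and 60.0 FPKM in BMH-21 libraries and 50.8, 54.6 and 49.1 FPKM in DMSO libraries. The nearest values of the 2 groups, 54.7 and 54.6 FPKM, almost touched, and the log2 fold change was 0.24 ± 0.07 (SE, limma adjusted p = 0.0141). It was 0.15 without BMH-21 replicate 2 (adjusted p = 0.0424), and the call was lost with column totals made equal (0.12, adjusted p = 0.16) and with no filter (adjusted p = 0.092). Snrpg lies opposite an annotated antisense gene over 2748 bases, and how the counting treated reads of that overlap is not given.

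Snrpb (chromosome 2, 130171414 to 130179403), which encodes SmB, was the most abundant Snrp mRNA. It had 165, 183 and 176 FPKM in BMH-21 libraries and 346, 305 and 319 FPKM in DMSO libraries, so that every BMH-21 value was well below every DMSO value (log2 fold change −0.88, limma adjusted p = 2.98e-07). Its paralog Snrpn, known from neurons, was close to 0 in all 6 libraries, although its transcript overlaps Snurf on the same strand and counting may divide their reads. Snrpd3 averaged 67.7 ± 2.7 FPKM with BMH-21 and 96.4 ± 0.84 FPKM with DMSO, and Snrpd1, whose product pairs with SmD2 in the ring, 62.0 ± 4.5 and 86.3 ± 0.74 FPKM in the same order of groups (SD, n = 3 each).

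Snrpf, which encodes SmF, had 106, 111 and 105 FPKM in BMH-21 libraries and 133, 127 and 112 FPKM in DMSO libraries. DMSO replicate 3, which like all BMH-21 libraries held epithelial markers, was nearly level with the BMH-21 libraries. The log2 fold change of −0.20 (limma adjusted p = 0.0116) was −0.05 with only DMSO replicate 3 as control, and its sign turned under median-ratio and upper-quartile scaling, at 0.08 and 0.03. Whether this value is tied to whatever raised those markers was not tested.

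With these opposite changes the ring mRNAs lay closer together. Snrpb was the highest and Snrpg the lowest of the 7 in every library. Their ratio was 4.05, 4.43 and 4.18 in the BMH-21 libraries and 9.39, 9.32 and 10.1 in the DMSO libraries. The standard deviation of log2 FPKM over the 7 genes was 0.70, 0.71 and 0.72 in BMH-21 libraries and 1.03, 1.00 and 1.04 in DMSO libraries. Both measures separated the groups without overlap, and dividing a whole library by a single factor moves neither. Quantile normalization can move them, and they were not computed after it.

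**Figure D3:**
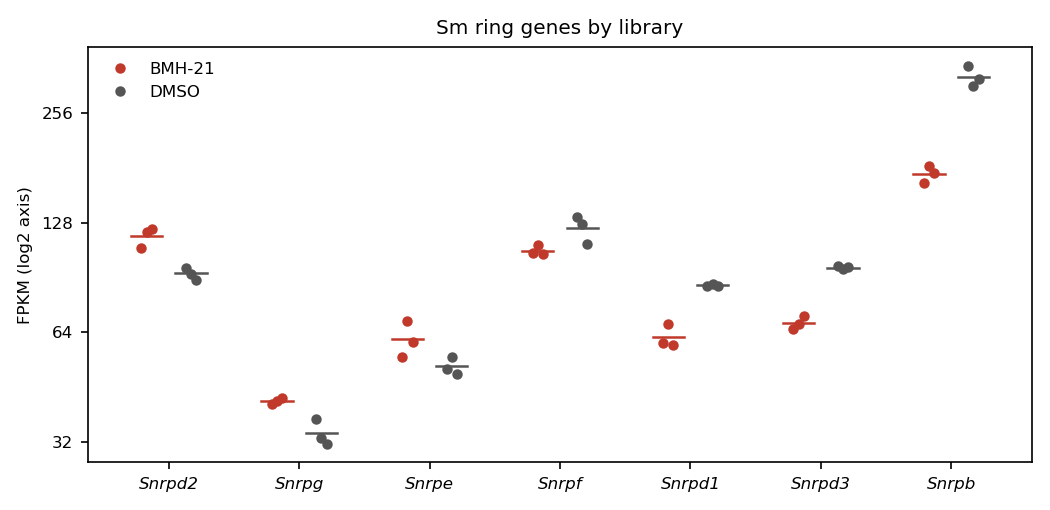
FPKM on a log2 axis of the 7 Sm ring genes, with a point for each library and a bar for the group mean (3 libraries each). Snrpd2, Snrpg and Snrpe lie higher with BMH-21, the other 4 lower, and Snrpb is the highest in both groups, at 165 to 183 FPKM with BMH-21 and 305 to 346 FPKM with DMSO. Snrpe is not called with column totals made equal, and Snrpf turns to 0.08 with median-ratio scaling.

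All 4 Snrp genes of the U1 and U2 particles fell. Snrpa, which encodes the A protein of the U1 particle and binds a loop of its RNA, had 26.1, 29.7 and 26.0 FPKM in BMH-21 libraries and 62.7, 50.7 and 55.3 FPKM in DMSO libraries (log2 fold change −1.02 ± 0.08 (SE), limma adjusted p = 9.85e-07). Snrpc, which encodes the C protein and helps the U1 particle recognise the 5′ splice site, averaged 24.3 ± 1.0 FPKM with BMH-21 and 33.3 ± 1.7 FPKM with DMSO. Snrpa1, which encodes the A′ protein of the U2 particle, had 19.4, 19.9 and 19.1 FPKM with BMH-21 and 30.0, 28.4 and 28.4 FPKM with DMSO (log2 fold change −0.55). Snrpb2 encodes the B″ protein, the partner of A′ in that particle, and its change was smaller, at 27.2 ± 1.9 FPKM with BMH-21 and 35.6 ± 2.2 FPKM with DMSO (log2 fold change −0.38, not called under median-ratio or upper-quartile scaling). Snrpa and Snrpb2 stood at the same mean of 27.2 FPKM in BMH-21 libraries, while Snrpa was the higher in DMSO libraries.

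The median of the Srsf genes lay 0.03 above that of all genes, and below it by other choices, at −0.16 with no filter, −0.13 with quantile normalization and −0.03 with a mean of at least 5 FPKM. Of the 10, 7 fell and 2 rose, but under median-ratio scaling 3 fell and 4 rose, so the count of falls in this family rests on the scaling. Srsf3 (chromosome 17, 29032628 to 29043373), which encodes the smallest SR protein and also acts in mRNA export, fell most. It had 33.9, 37.2 and 34.3 FPKM in BMH-21 libraries and 54.2, 53.7 and 57.5 FPKM in DMSO libraries (log2 fold change −0.64, limma adjusted p = 9.61e-07). Srsf5 had 33.9, 37.0 and 34.5 FPKM with BMH-21 and 50.1, 49.3 and 49.3 FPKM with DMSO (log2 fold change −0.48). Srsf7, a close relative of Srsf3 and likewise an export adaptor, had 17.3, 18.1 and 18.7 FPKM with BMH-21 and 27.5, 23.4 and 25.4 FPKM with DMSO (log2 fold change −0.47). In these 3 genes the groups did not overlap, and they were called lower under every alternative that kept replicates in both groups.

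Srsf4 averaged 9.11 ± 1.0 FPKM with BMH-21 and 12.6 ± 1.1 FPKM with DMSO, a log2 fold change of −0.43 whose call was lost under median-ratio and quantile scaling. Srsf1, the founding SR protein, Srsf2, also known as SC35, and Srsf6 were called lower by small amounts, at −0.15, −0.19 and −0.21, and turned to 0.13, 0.08 and 0.06 under median-ratio scaling. Srsf1 was also not called without BMH-21 replicate 1 (adjusted p = 0.0562) or without BMH-21 replicate 3 (0.0505). Srsf2 overlaps the protein-coding gene Mettl23 on the opposite strand over its whole length of 3194 bases, and Mfsd11 on that strand over 655 bases. The change of Srsf2 was −0.30 with only DMSO replicate 3 as control.

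Srsf10 and Srsf9 were the called rises. Srsf10 (chromosome 4, 135855747 to 135869908) encodes an SR protein that represses splicing when dephosphorylated, as in heat shock. It had 23.7, 24.2 and 24.6 FPKM in BMH-21 libraries and 20.0, 20.9 and 20.5 FPKM in DMSO libraries, with no overlap (log2 fold change 0.23 ± 0.04 (SE), limma adjusted p = 0.000373). Srsf10 was called higher under every alternative that kept replicates in both groups. Srsf9, the most abundant Srsf mRNA, had 183, 204 and 200.3 FPKM in BMH-21 libraries and 162, 165 and 196 FPKM in DMSO libraries (log2 fold change 0.17, limma adjusted p = 0.0484). DMSO replicate 3 lay inside the BMH-21 range. The log2 fold change was 0.26 without that library and −0.00 with that library as the only control. The call was lost without BMH-21 replicate 2 or 3 or DMSO replicate 1 or 2, at 0.12 to 0.16 (adjusted p = 0.116 to 0.164). Srsf11, a partner of other SR proteins, did not pass, with 10.0, 9.13 and 9.77 FPKM in BMH-21 libraries and 8.98, 9.53 and 8.98 FPKM in DMSO libraries (log2 fold change 0.07, limma adjusted p = 0.246). It was called higher under median-ratio, upper-quartile and quantile scaling, at 0.28 to 0.33, and turned to −0.04 with column totals made equal (adjusted p = 0.427).

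Members with longer coding sequence tended to lie lower, as did all genes. Across the 50 tested members Spearman's rho of log2 fold change with coding length was −0.47, and across 9207 tested protein-coding genes −0.28. Genes are not independent replicates, and FPKM itself divides by length. Within the 11 Snrp genes rho was −0.85, within the 20 Hnrnp genes −0.12, within the 9 Sf3 genes −0.23 and within the 10 Srsf genes 0.18. Of the 8 members with at most 400 coding bases, 3 (Snrpd2, Snrpg and Snrpe) rose and 5 fell. The median of these 8 was −0.24, against 0.24 for the 497 genes of that class. The 19 members with over 800 and up to 1500 coding bases all fell, with a median of −0.54, against −0.27 for 3147 genes. In each of the 4 length classes the members' median was below that of all genes, as the plot of change against coding length shows.

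**Figure D4:**
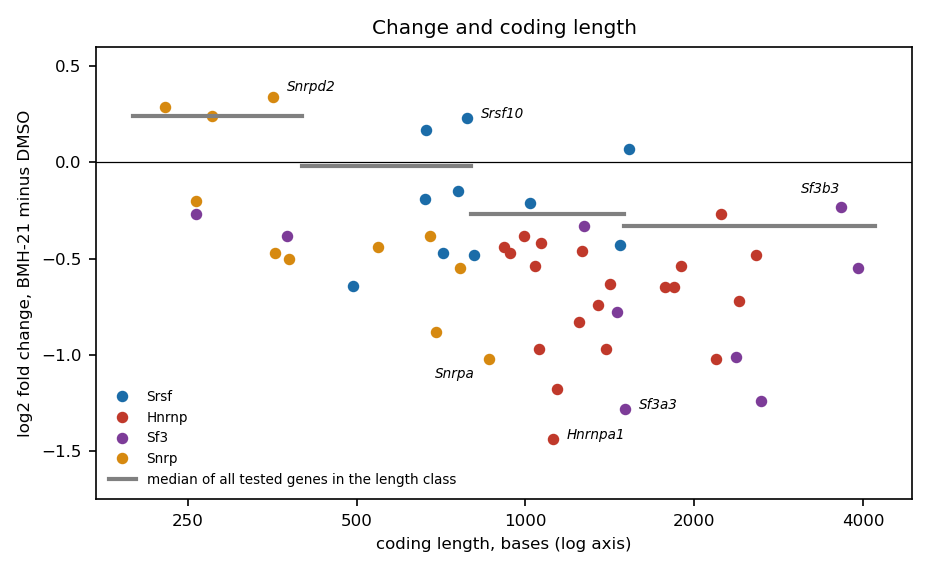
Log2 fold change (BMH-21 minus DMSO, log2(FPKM + 1) scale) against coding length on a log axis for the 50 tested members, coloured by family. Grey lines give the median of all tested protein-coding genes in 4 length classes, at 0.24, −0.02, −0.27 and −0.33 from short to long, where the members' medians were −0.24, −0.41, −0.54 and −0.65.

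Other genes of the splicing pathway were taken from 9 lists by function, with 182 genes. In all, 144 of the 175 tested list genes were lower and 14 higher, against 58.4% lower and 19.9% higher among all genes. Under median-ratio scaling 92 of the list genes were lower and 31 higher, against 3546 lower and 3643 higher of all 9748 genes. The list closest to the Hnrnp genes held other hnRNPs and splicing regulators. Of its 32 tested genes, 30 fell and 2 rose, and the list's median was −0.39 against the all-gene median. Under median-ratio scaling 24 fell, 2 rose and 6 were not called. Taf15, an RNA-binding protein, averaged 11.9 FPKM with BMH-21 and 54.3 FPKM with DMSO (log2 fold change −2.10), Nono, a paraspeckle protein, 10.7 and 35.8 FPKM in the same order, and Pcbp2, a poly(C)-binding protein, 38.2 and 81.7 FPKM. The 2 that rose, named here after their values were seen, were Mbnl1, at 21.6 FPKM with BMH-21 and 15.1 FPKM with DMSO, and Mbnl2, at 10.1 and 9.31 FPKM in the same order (limma adjusted p = 0.0435).

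Catalytic-stage factors fell in 27 of 28 tested genes (96.4%, against 58.4% of all genes), with 1 higher. Their median was −0.28 against the all-gene median. Under median-ratio scaling 19 fell, 2 rose and 7 were not called. Prpf19, a ubiquitin ligase of the activated spliceosome, averaged 4.79 FPKM with BMH-21 and 11.9 FPKM with DMSO, Ctnnbl1, which binds the same complex, 5.93 and 14.6 FPKM in the same order, and Rbm22, which lies near the catalytic centre, 3.35 and 8.65 FPKM. Among 15 tested U2AF, SF1 and U2-associated genes, 13 fell and 2 did not pass, with a median of −0.29 against the all-gene median. Under median-ratio scaling 10 fell, 2 rose and 3 were not called. Htatsf1, which binds the U2 particle, averaged 5.4 FPKM with BMH-21 and 11.1 FPKM with DMSO, the branch point protein gene Sf1 9.25 and 16.2 FPKM, and U2af1, which reads the 3′ splice site, 52.7 and 80.2 FPKM.

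SR-related proteins, which carry arginine-serine stretches like the Srsf products, fell in 18 of 20 tested genes (90.0%) and did not pass in 2. Their median was only −0.08 against the all-gene median, and 58.4% of all genes were lower. Under median-ratio scaling 7 of the 20 were lower and 2 higher, against 3546 lower and 3643 higher of all 9748 genes. Pnn, a nuclear speckle protein, averaged 1.24 FPKM with BMH-21 and 4.39 FPKM with DMSO, Luc7l3 2.1 and 5.26 FPKM, and Tra2b, an activator of exon inclusion, 8.91 and 15.6 FPKM. Of 7 genes of SR protein kinases and their importer, 5 (71.4%) fell and 2 did not pass, against 58.4% lower among all genes. Under median-ratio scaling 4 of these 7 fell and 2 rose. With quantile normalization 3 fell and 2 rose, against 3498 lower and 3517 higher of all 9748 genes. The importer Tnpo3 was at 3.35 FPKM with BMH-21 and 5.74 FPKM with DMSO, the SR protein kinase Srpk1 at 2.7 and 4.8 FPKM, and the kinase Clk3 at 4.58 and 6.59 FPKM. Of 19 exon junction and nonsense-mediated decay genes, 18 fell and 1 did not pass, with a median of −0.22 against the all-gene median. Under median-ratio scaling 11 fell and 2 rose. Casc3 averaged 3.27 FPKM with BMH-21 and 8.75 FPKM with DMSO, Eif4a3 33.0 and 78.1 FPKM, both core parts of the exon junction complex, while Ncbp1 of the cap-binding complex averaged 8.56 FPKM with BMH-21, or 47.5% of its DMSO mean.

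Of the 10 LSm genes, whose products form Sm-like rings, 4 rose, 4 fell and 2 did not pass, with a median of 0.23 against the all-gene median. Under median-ratio scaling 6 of them rose and 0 fell by limma (0 also at an unadjusted p under 0.05), and with column totals made equal 3 rose and 5 fell. Lsm3 averaged 8.85 FPKM with BMH-21 and 6.63 FPKM with DMSO, Lsm6 9.25 and 7.28 FPKM, and Lsm7 55.1 and 43.7 FPKM. Of 29 tested genes of other snRNP proteins, 18 (62.1%) fell, 5 rose and 6 did not pass, near the 58.4% that fell among all genes, and their median was −0.02 against the all-gene median. Under median-ratio scaling 11 fell and 9 rose. The tri-snRNP gene Sart1 was at 4.8 FPKM with BMH-21 and 11.0 FPKM with DMSO, Usp39, of the same particle, at 27.0 and 43.6 FPKM in that order, and the U1 gene Snrnp70 at 10.2 FPKM with BMH-21, or 56.7% of its DMSO mean. Of 15 tested assembly genes, 11 (73.3%) fell, 2 rose and 2 did not pass, at a median of −0.06 against the all-gene median. Under median-ratio scaling 6 of the 15 fell and 4 rose, against 3546 lower and 3643 higher of all 9748 genes. Prmt5, the enzyme that methylates Sm proteins, averaged 3.81 FPKM with BMH-21 and 7.16 FPKM with DMSO, Gemin2 of the SMN complex 5.45 and 9.44 FPKM, and the snRNA export adaptor gene Phax 45.8 and 62.3 FPKM. Wdr77, whose product is the partner of PRMT5, was named after its values were seen and was at 21.6 FPKM with BMH-21 and 16.1 FPKM with DMSO.

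**Figure D5:**
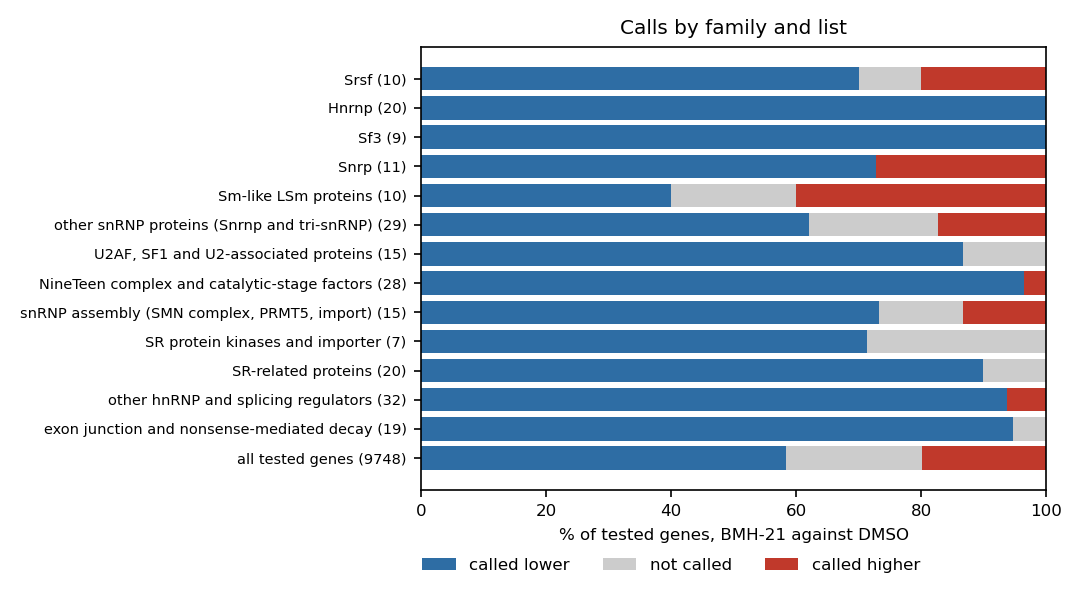
Bars give the percentage of tested genes called lower, not called and called higher in BMH-21 against DMSO, for the 4 families, the 9 lists and all tested genes, with the number tested in brackets. Hnrnp and Sf3 are at 100% lower (18 to 20 of 20 and 6 to 9 of 9 genes under other scalings), and 40.0% of the LSm list is called lower, against 58.4% of all genes. Under median-ratio scaling none of the LSm genes is called lower.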

How the data were processed

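Polysome RNA of RAW264.7 cells was enriched for mRNA with oligo-dT beads and sequenced as 6 libraries, per the labels' protocols and the series design. Groups and replicate numbers came from the sample titles. For the molecule, DMSO replicate 2 is labelled as polyA RNA and the other 5 libraries as total RNA, although all share a protocol. Trimmomatic 0.38, HISAT2 and SAMtools were used on mm10, per the submitters' processing notes. What counted and normalised the fragments, and on which annotation, is not given in the sources used here. The deposited table holds a value per gene and library, read as FPKM from the values, since its header names no unit. Depth was estimated as the number of fragments, between 10000000 and 30000000, at which most low single-transcript genes came within 0.05 of a whole number. That share was 80.0% to 81.5%, too low to recover counts, so no count model was fitted.

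The 9748 genes (50.7%) that reached 1 FPKM in 3 or more libraries were tested on log2(FPKM + 1). The test was limma 3.58.1 (R 4.3.3) with a trend of variance on level and Benjamini-Hochberg adjustment over all of them, at a threshold of 0.05. Fold changes on this scale understate those of low genes. Whether the replicates are separate cultures is not in the labels, and p-values measure only how these libraries spread, which may be technical. The same test was also run on simulated data in which far fewer genes changed than were called here, and no result rests on it. A planned count test was not used because the table holds no counts.

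Members, lists and tests were chosen with earlier results of these data known. Lists are described by counts and medians, with no set test. Values in each library are given for the most abundant member of each family, its 3 largest called rises and falls, and the member not called, and other genes come from the lists in ascending order of p, up to 3 per list. Positions and lengths came from GENCODE M21 on GRCm38, the assembly of mm10 (97.3% of genes matched), and promoter windows from RefSeq. Of the tested members, 26 overlap another annotated gene, 10 of them a protein-coding gene on the opposite strand. Alternatives changed the pseudocount, filter, scaling, trend, replicate block and libraries, and 1, leaving out DMSO replicates 1 and 2, was chosen after seeing the data.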

Additional observations from a re-analysis of the deposited data

How the results depend on the processing

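The counts of members called changed and called lower stayed within 1.5 times of 49 and 44 under every alternative that kept replicates in both groups. The count called higher, 5, was 3 with no filter and 3 with column totals made equal. The Hnrnp median relative to all genes, −0.41, was −0.60 with no filter, −0.48 with a mean of at least 5 FPKM and −0.45 with quantile normalization. The Sf3 median, −0.31, was −0.49 with a pseudocount of 0.1, −0.51 with no filter and −0.41 with a mean of at least 5 FPKM. With the pseudocount of 0.1 it lay below the Hnrnp median of −0.43, so the order of these families rests on the pseudocount. The Snrp median, −0.21, was −0.34 with no filter. The Srsf median, 0.03, was −0.16 with no filter, −0.03 with a mean of at least 5 FPKM, 0.08 with median-ratio scaling, −0.13 with quantile normalization and −0.01 with DMSO replicates 1 and 2 left out. With no filter the all-gene median itself was −0.04, since 19233 genes entered, many near 0. Signs turned with median-ratio scaling for Srsf1 (0.13), Srsf2 (0.08), Srsf6 (0.06), Snrpf (0.08) and Sf3b5 (0.00), with upper-quartile scaling for Srsf1 (0.08), Srsf2 (0.04), Srsf6 (0.02) and Snrpf (0.03), with quantile normalization for Sf3b3 (0.09), with DMSO replicates 1 and 2 left out, which leaves 1 DMSO library and no test, for Srsf9 (−0.00), and with column totals made equal for Srsf11 (−0.04), which was not called. For changes by scaling, the shift of all genes comes with the alternative's construction, and other causes were not tested.

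With the replicate block, 49 members were called, 44 lower and 5 higher, and no member's call changed. Same-numbered libraries did not deviate together (correlations of −0.112, −0.0939 and −0.0638), so the numbers were not read as pairs. Without the intensity trend, only the call of Srsf9 was lost (adjusted p = 0.0671). Leaving out each library in turn gave 43 or 44 members lower and 4 or 5 higher, the calls lost being those of Srsf1 and Srsf9. With 3 libraries per group, changes of the size of Srsf1 and Srsf9 are near the limit of what these data separate.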

Other observations

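The 2 rows with pseudogene names that the name rule left out were near 0. Hnrnpa1l2-ps was at 0.0 to 0.042 FPKM in BMH-21 libraries and 0.0109 to 0.096 FPKM in DMSO libraries, and Srsf3-ps at 0.0 to 0.0417 FPKM in BMH-21 libraries and 0.0345 to 0.2259 FPKM in DMSO libraries.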
